A study of Mus musculus with 12 samples.

Results

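Myeloid-derived suppressor cells (MDSCs) carrying rapamycin-loaded nanoparticles on their surface, called CITED, were compared with unmodified MDSCs. The comparison used 8 of the 12 RNA-seq libraries of the series, 4 of CITED and 4 of MDSC, and 17676 of the 35303 gene symbols in the count table, those with at least 2 counts over the 12 libraries. All cells were wild-type mouse bone marrow cells from female C57BL/6 donors aged 6 to 10 weeks, grown for 3 days with GM-CSF and IL-6, purified on CD11b and Gr1, and kept for a further 24 hours in 40 ng/ml IL-6. In CITED, poly(lactide-co-glycolide) (PLGA) particles loaded with rapamycin had been clicked onto azido sugars on the cell surface. The third group of 4 libraries, MDSC-NP-Blk, carried PLGA particles without drug and is given here only beside results of CITED. A particle and rapamycin were both absent from the MDSC group, so their parts in a difference between CITED and MDSC cannot be told apart in that comparison alone. Whether the unmodified MDSCs also carried azido groups is not stated in the sources used here, and the study calls its replicates biologically independent without saying whether they came from separate cultures or animals, so p-values measure the spread between these libraries. The labels name the central nervous system as tissue, whereas the cells were cultured marrow cells.

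MDSCs are immature myeloid cells, of monocytic and of neutrophil-like (polymorphonuclear) type, that expand in inflammation and cancer and restrain T cells. Rapamycin binds FKBP12 and inhibits the kinase mTOR in its complex mTORC1, which senses amino acids, growth factors and energy. Active mTORC1 promotes translation, ribosome production, and the synthesis of lipids and amino acids through the transcription factors SREBP and ATF4, and it restrains autophagy and the lysosomal program of TFEB. Neutrophil precursors make their granules in sequence, with the azurophil granule proteins first, then those of the specific granules, then those of the gelatinase granules.

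Total counts of the 8 libraries ran from 21336119 to 27832481. The neutrophil markers S100a8, Retnlg, Mmp8 and Csf3r and the monocyte markers Csf1r and Cd68 were present in every one of the 8 libraries, at 3910.1 normalized counts or more per gene. Normalized counts are read counts divided by the TMM-scaled library size and brought back to the mean library size. A gene was called when edgeR's quasi-likelihood test gave a Benjamini-Hochberg adjusted p below 0.05 and the log2 fold change was at least 1 in size, and 9.99% of the genes tested were called. In these terms 3.28% of all genes were called higher in CITED and 6.7% lower, and the median log2 fold change of all genes was -0.05. Scaling to library size alone, without TMM, shifted that median by a further -0.27, and the share of calls that were higher went from 32.9% to 12.6%. Of 149 called genes among those examined by name, 41 lost the call under that scaling, all of them higher in CITED. Genes with short transcripts had relatively more counts in CITED than genes with long ones. The rank correlation over 10542 genes between transcript length and a library's deviation from the mean of all libraries was positive in every MDSC library (0.218 to 0.346), negative in every CITED library (-0.341 to -0.187) and mixed with blank particles (-0.422 to 0.0917).

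**Figure D1:**
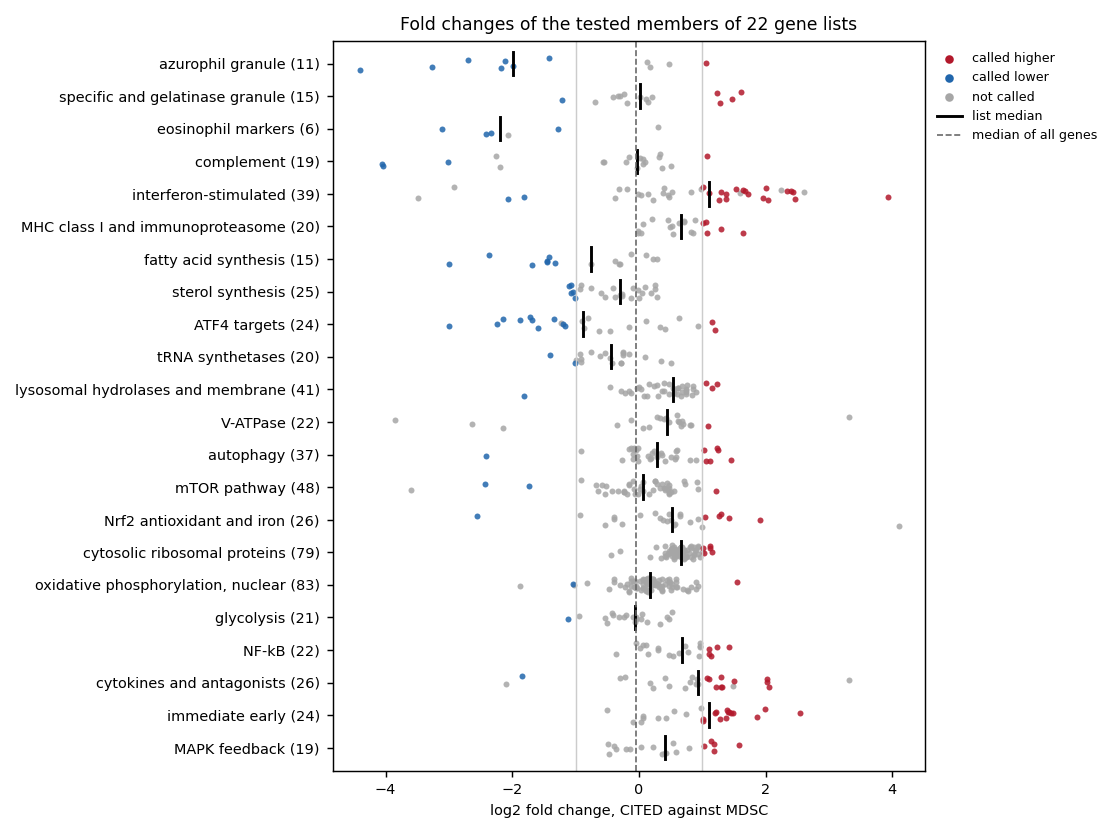
Log2 fold changes (CITED over MDSC, horizontal axis) of the tested members of 22 gene lists (rows). Each point is a gene, red where called higher, blue where called lower and grey where not called; the black bar is the list median and the dashed line the median of all 17676 genes, -0.05. The azurophil granule and eosinophil lists lie mostly to the left, with medians of -1.98 and -2.19, and the interferon-stimulated and immediate early lists mostly to the right, both with a median of 1.11.

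Several of the genes with the largest changes lay outside any list. Fbxo32, a muscle-atrophy ubiquitin ligase and a textbook FoxO target, had 58.8, 31.3, 43.2 and 48.2 normalized counts in the MDSC libraries and 368, 368, 348 and 304 in CITED. It rose 7.56-fold (log2 fold change 2.92 ± 0.149 SE, adjusted p = 6.92e-18, edgeR), and every CITED library lay above every MDSC library. The chemokine gene Ccl5 rose 8.07-fold, from 61.6 to 77.3 counts in MDSC to 522 to 583 in CITED. Pla1a, a phosphatidylserine-specific phospholipase, rose 5.81-fold, and the adhesion protein gene Mpzl2 rose 7.88-fold. The value of Mpzl2 is uncertain because 74.7% of its 31-base words also occur in transcripts of other genes. In MDSC-NP-Blk, Fbxo32 had 217 to 240.3 counts, and CITED exceeded those libraries by 0.62 ± 0.128 on the log2 scale (adjusted p = 0.000335, edgeR).

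Hif3a, which encodes a hypoxia-inducible factor subunit that can oppose the other two, had one of the steepest losses. It had 133, 119.6, 129.5 and 91.3 normalized counts in MDSC and 5, 6.1, 6.64 and 4.82 in CITED, a 20.7-fold difference with no overlap (log2 fold change -4.37 ± 0.352 SE, adjusted p = 1.04e-12, edgeR). Smtnl2, a smoothelin-like gene, fell 14-fold, from 69.3 to 111 counts in MDSC to 2.44 to 10.6 in CITED. Neither gene was low in the cells with blank particles: Hif3a had 47.8 to 162 counts there and Smtnl2 71.7 to 182. The difference of CITED from MDSC-NP-Blk was -4.10 ± 0.357 for Hif3a and -4.21 ± 0.356 for Smtnl2 on the log2 scale, with adjusted p of 4.47e-11 and 2.29e-11. Glt1d1, a glycosyltransferase-like gene, fell by 3.33 on the log2 scale against MDSC. These CITED levels are only a few counts per library, so the folds rest on small numbers.

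Genes of the first granules fell, while several of the later granules rose. Of 11 azurophil granule genes tested, 7 fell (Mpo, Elane, Ctsg, Prtn3, Prss57, Ms4a3 and Cst7), 1 rose (Srgn), and the list median was -1.98. Of 15 specific and gelatinase granule genes, 4 rose (Mmp8, Mmp9, Retnlg and Slpi) and 1 fell (Camp), with a median of 0.02. The libraries of CITED and MDSC did not overlap for 10 of the 11 and 13 of the 15 genes, against 42.5% of all genes tested. That share includes many rare genes. All genes of both lists had a mean normalized count above 50, and 6845 of the 10555 such genes did not overlap. Elane, neutrophil elastase (GRCm39 chromosome 10, 79722081 to 79724051), had 16282, 14372, 15338 and 14169 normalized counts in MDSC and 1702, 1473, 1550.2 and 1502 in CITED. Every CITED library was far below every MDSC library, 9.66-fold on average (log2 fold change -3.27 ± 0.0561 SE, adjusted p = 5.23e-31, edgeR). Ctsg, the serine protease cathepsin G, went from 8548 to 9106 counts in MDSC to 1234 to 1523 in CITED, and Ms4a3, a membrane protein of granulocyte and monocyte precursors, from 6087 to 6775 to 1488 to 1817. Prtn3, proteinase 3, which was chosen after its values were seen, fell 4.49-fold.

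The cells with blank particles kept most of their Elane. Their libraries held 11004, 10669, 11074 and 10749.5 normalized counts, between the other groups and closer to MDSC, and CITED was lower than MDSC-NP-Blk by 2.80 ± 0.0553 on the log2 scale (adjusted p = 1.69e-28, edgeR). Over the 11 azurophil genes, 9 were lower in CITED than in MDSC-NP-Blk by adjusted p alone and 0 were higher, where 22% of all genes passed that test in either direction. Of the 15 specific and gelatinase granule genes, 11 were lower and 3 higher in the same comparison. Camp, the cathelicidin of specific granules, showed the same order: 13216 to 15762 counts without particles, 12739 to 14466 with blank ones and 5700.1 to 6879 with rapamycin particles. Ctsg differed in this respect, since it was already at 3127 to 3675 counts with blank particles. Srgn, serglycin, the proteoglycan that packs granule proteins, rose 2.09-fold against MDSC and stood at 46199 to 51106 counts in MDSC-NP-Blk, a difference from CITED of -0.005 ± 0.043.

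Among the genes that rose, the collagenase gene Mmp8 had 46657, 48483, 44213 and 45226 normalized counts in MDSC and 129129, 125452, 129286 and 125797 in CITED. The groups stood well apart, at 2.76-fold (log2 fold change 1.47 ± 0.0389 SE, adjusted p = 2.43e-25, edgeR), and MDSC-NP-Blk lay between them at 84502 to 87793. Mmp9, the gelatinase of the last granules, rose 2.34-fold, and Retnlg, a resistin-like secreted protein, 3.06-fold. Retnlg reached 12893 to 15653 counts in MDSC-NP-Blk, a difference from CITED of 0.04 ± 0.0641. S100a8, a subunit of calprotectin and one of the most abundant transcripts, had 244985 to 283624 counts in MDSC and 245166 to 296704 in CITED, and the libraries overlapped (log2 fold change -0.005 ± 0.0471). Mmp12, the macrophage elastase, which is not a granule protein, rose 2.45-fold, with 134493 to 146606 counts in CITED.

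**Figure D2:**
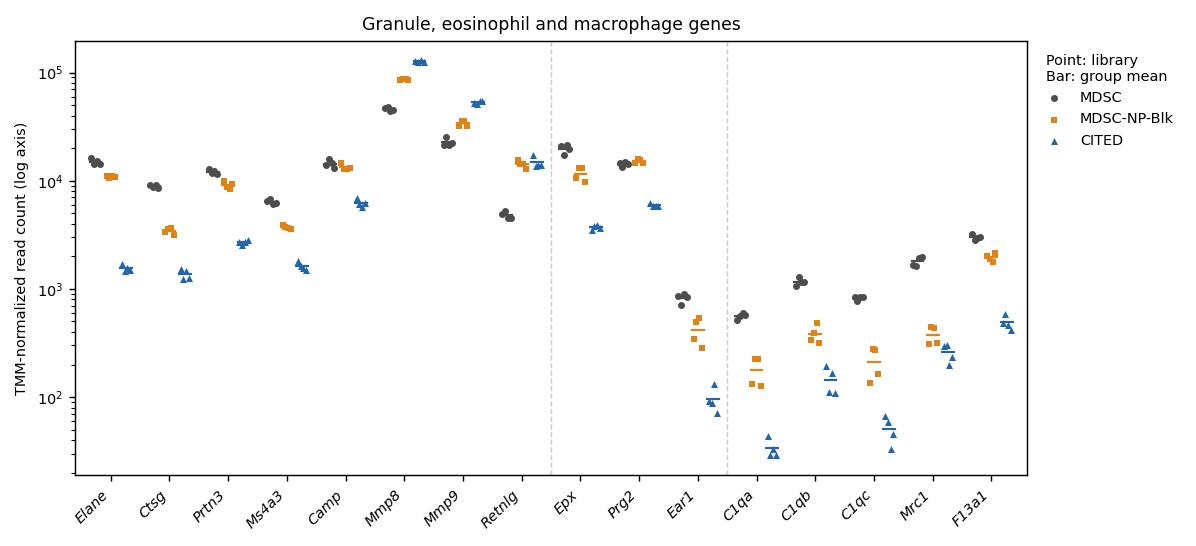
TMM-normalized read counts (log axis) of granule genes, eosinophil genes, and C1q and macrophage genes in each library. Points are libraries and bars are group means; grey circles are MDSC, orange squares MDSC-NP-Blk and blue triangles CITED. For Elane the CITED points sit at 1473 to 1702 and the MDSC points at 14169 to 16282, while for Mmp8 the CITED points are the highest.

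Regulators of myeloid maturation were called about as often as genes at large. Of 26 myeloid transcription factor genes, 2 fell (Gfi1 and Myb) and 1 rose (Cebpb), 11.5% in all against 9.99% of all genes. By adjusted p alone 23 passed, 15 of them upward and 8 downward, where 44.5% of all genes did. Of the 26, 25 had a mean normalized count above 50, and of the 10555 such genes 3761 passed upward and 3409 downward. Gfi1, a repressor needed for neutrophil formation, had 1636, 1571, 1859 and 1559 normalized counts in MDSC and 359, 309.8, 443 and 406 in CITED. It fell 4.35-fold (log2 fold change -2.12 ± 0.0903 SE, adjusted p = 5.75e-20, edgeR) and was intermediate in MDSC-NP-Blk, at 840.1 to 1011. Cebpb, the C/EBP factor of emergency granulopoiesis, had 7062, 6919, 6740.2 and 6121 counts in MDSC and 18315, 19427, 18701 and 19837 in CITED, a 2.84-fold rise without overlap. The values of Cebpe, a factor of late granule genes, and of Irf8, a monocyte factor, were -0.35 ± 0.0581 and 0.76 ± 0.0604 on the log2 scale, both short of the 1 needed for a call.

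Of 22 stem and progenitor genes, 5 fell (Myb, Bcl11a, Hlf, Hoxa9 and Hoxa10) and 1 rose (Gfi1b), with a median of -0.47. Called genes made up 27.3% of the list, against 9.99% of all genes. Myb, a factor of proliferating progenitors, fell 3.93-fold, from 1423 to 1579.7 counts in MDSC to 313 to 448 in CITED. Bcl11a and Hoxa9 fell 3.44-fold and 2.52-fold. The receptor gene Kit and the surface antigen gene Cd34 were not called and their libraries overlapped, with log2 values of -0.14 ± 0.0739 and -0.02 ± 0.129. Against MDSC-NP-Blk, 10 of the 22 genes were lower in CITED by adjusted p alone, Kit among them (-0.63 ± 0.0736), and 0 were higher.

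Markers of some other marrow cell types differed between the groups. Of 8 erythroid and megakaryocyte markers 0 were called, with a median of -0.10. Their summed level was 3641 to 4189 normalized counts in MDSC and 5317 to 5829.9 in CITED. Of 6 eosinophil markers, 4 fell (Epx, Prg2, Ear1 and Ear2, which encode granule proteins). The other 2, the receptor genes Siglecf and Il5ra, were not called, with log2 values of 0.30 and -2.06, and Siglecf was higher by adjusted p alone. The summed level of the 6 eosinophil markers went down in the order MDSC (32200.0 to 38386 normalized counts), MDSC-NP-Blk (25244 to 30414) and CITED (10256 to 10538). Epx, eosinophil peroxidase, had 20810.4, 17176, 21417 and 19684 counts in MDSC and 3468, 3836, 3925 and 3692 in CITED, 5.3-fold lower in CITED with no overlap (log2 fold change -2.41 ± 0.074 SE, adjusted p = 1.09e-23, edgeR). Prg2, the eosinophil major basic protein gene, fell 2.4-fold against MDSC, with 14432 to 15945 counts in MDSC-NP-Blk, 13276 to 14997 without particles and 5893 to 6175 in CITED. Ear1, an eosinophil ribonuclease gene, fell 8.66-fold, but 74.5% of its 31-base words are shared with other genes, so its value is uncertain. In bulk RNA, fewer cells of a type and less RNA per cell cannot be told apart. The part of cell composition in the granule and transcription factor results was not tested.

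The 3 chains of C1q, the first complement component and a product of tissue macrophages, had some of the steepest losses. C1qa had 513, 556, 593 and 574 normalized counts in MDSC and 43.8, 29.3, 33.2 and 28.9 in CITED, 16.6-fold lower (log2 fold change -4.05 ± 0.179 SE, adjusted p = 1.47e-19, edgeR). C1qb and C1qc fell 8.08-fold and 16.4-fold, and all 3 were between the groups in MDSC-NP-Blk, where C1qa had 126 to 227 counts. The macrophage mannose receptor gene Mrc1 fell 7-fold, from 1640.1 to 1962 counts to 198 to 306, and F13a1, a coagulation factor subunit found in monocytes and macrophages, fell 6.18-fold. Complement genes outside C1q had other values: C3 was at -0.03 ± 0.0455 on the log2 scale, a sign that turned under a correction for transcript length (0.12), and the C5a receptor gene C5ar1 rose 2.1-fold.

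Monocyte and macrophage markers were split. Of 9 such genes, Mrc1 and F13a1 fell and Cd68, a lysosomal membrane protein, rose 2.08-fold, while their summed level was 77915 to 83588 counts in MDSC and 97111 to 104589 in CITED. Csf1r, the M-CSF receptor gene, had 10763 to 11823 counts in MDSC and 22234 to 22833 in CITED, 1.99-fold and just short of the threshold. Mrc1 was as low as 312 to 449 counts with blank particles, whereas F13a1 remained at 1789 to 2149.7 there. Summed neutrophil markers were 674113 to 769933 in MDSC and 767844 to 865647 in CITED. The 8 mast cell and basophil markers had summed levels of 15319.7 to 16371 in MDSC and 10704 to 10933 in CITED, with 1 gene called lower, Ms4a2, and all 8 lower than in MDSC-NP-Blk by adjusted p alone.

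Of 7 lymphoid markers, 4 fell, all of them B cell genes, while the T cell and killer cell genes Cd3e, Cd3d and Gzma were not called. The 7 genes were rare and summed to 254 to 345 counts in MDSC and 91.7 to 121 in CITED. Cd79b, a chain of the B cell receptor, had 182, 146, 135 and 139 counts in MDSC and 35, 57.3, 29.9 and 32.8 in CITED, a 3.91-fold fall (adjusted p = 6.19e-09, edgeR). Cd79a fell 2.72-fold. Of 7 dendritic cell markers, 1 rose, 1 fell and 5 were not called. Their summed level was 821 to 1005 counts in MDSC and 1076 to 1197 in CITED. The marker that fell was Siglech, a plasmacytoid dendritic cell receptor. It was listed at 0 in all 4 CITED libraries and at 3.67 to 11.4 counts in MDSC, near the floor of 3 counts per library. Clec9a, a receptor of cross-presenting dendritic cells, was called higher, but 83.6% of its 31-base words are shared, mostly with the overlapping gene Clec1a, so the gene behind those reads is uncertain.

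Many interferon-stimulated genes rose. Of 39 tested, 18 rose and 2 fell, against 3.28% and 6.7% of all genes, and the list median was 1.11. In MDSC-NP-Blk against MDSC, 3 rose and 1 fell, with a median of 0.22, and 22 of the 39 were higher in CITED than in MDSC-NP-Blk by adjusted p alone, with 1 lower. Interferons are cytokines of the antiviral response, and their receptors signal through the factor complex ISGF3, which binds a promoter element called ISRE. The letters GAAANNGAA of its core were searched on both strands from 250 bases before to 50 bases after the start of 17648 genes, overlapping matches included. They occurred in 8.63% of all these promoters and in 22 of the 39 interferon-stimulated genes (56.4%), of which 12 were among the 18 that rose, 0 among the 2 that fell and 10 among the 19 not called. A match is a description of letters and no binding was measured. The windows of 4 genes that rose are shown from 100 bases before to 20 bases after the start, from the GRCm39 genome, 5′ to 3′ on the strand of the gene, with the matches in capitals.
Rtp4, chr16:23428546-23428665, plus strand: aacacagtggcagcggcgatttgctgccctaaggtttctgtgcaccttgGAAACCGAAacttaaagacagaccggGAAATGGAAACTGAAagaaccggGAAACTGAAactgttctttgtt
Isg15, chr4:156285284-156285403, minus strand: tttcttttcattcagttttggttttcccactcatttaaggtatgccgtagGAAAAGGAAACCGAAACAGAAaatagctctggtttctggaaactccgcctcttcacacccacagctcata
Usp18, chr6:121222757-121222876, plus strand: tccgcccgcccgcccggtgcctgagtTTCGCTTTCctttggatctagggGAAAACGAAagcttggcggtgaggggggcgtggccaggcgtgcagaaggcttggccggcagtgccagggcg
Ifi204, chr1:173594591-173594710, minus strand: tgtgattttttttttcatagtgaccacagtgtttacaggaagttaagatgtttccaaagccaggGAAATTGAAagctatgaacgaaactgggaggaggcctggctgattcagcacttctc

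Oasl2, an oligoadenylate synthetase-like antiviral protein, had 349, 442, 288 and 366 normalized counts in MDSC and 1874, 2011, 2127 and 1991 in CITED. All CITED libraries were several times above all MDSC libraries (5.54-fold, log2 fold change 2.47 ± 0.0884 SE, adjusted p = 6.78e-22, edgeR), although its promoter window held no ISRE core, as was also so for Irf7, Ifit2 and Mx1. Usp18, a protease that removes the ubiquitin-like protein Isg15 and dampens interferon receptors, was chosen after its values were seen, as was Isg15. Usp18 had 44.7, 41.8, 41.3 and 39.1 counts in MDSC, 52.2, 51.6, 60.3 and 30.3 in MDSC-NP-Blk and 225, 159.8, 251 and 214 in CITED. Only the CITED libraries of Usp18 stood apart, 5.08-fold above MDSC and 2.12 ± 0.201 above MDSC-NP-Blk on the log2 scale (adjusted p = 3.06e-10, edgeR). Isg15 showed the same order, with 57.9 to 83.1 counts in MDSC, 75.7 to 103 with blank particles and 181 to 234 in CITED.

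Ifi204, a nucleic acid sensor of the p200 family, rose 3.89-fold, with 44% of its 31-base words shared with related genes, and the interferon regulatory factor gene Irf7 rose 2.6-fold. Ifit2, a binder of viral RNA, fell 3.54-fold, from 217 to 260.0 counts in MDSC to 51.1 to 93.9 in CITED. Mx1 was called lower too, but its libraries overlapped and 2 of the 4 CITED libraries were at 0, and its call was lost without 1 library. The gene of the guanylate-binding protein Gbp2 rose 2.25-fold and was as high with blank particles (679.5 to 833 counts, a difference of 0.07 ± 0.0883).

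The Schlafen genes, which restrain translation and viral replication and are partly driven by interferon, changed in both directions. Slfn5 had 137, 146, 176 and 168 normalized counts in MDSC, 144, 129, 143 and 134 in MDSC-NP-Blk and 654, 665, 681 and 698 in CITED. Slfn5 was high in CITED and level in the other groups, 4.31-fold above MDSC (adjusted p = 1.99e-18) and 2.30 ± 0.105 above MDSC-NP-Blk on the log2 scale (adjusted p = 5.7e-18, edgeR). Slfn1 and Slfn8 rose 2.48-fold and 3.46-fold, and Slfn9 fell 2.43-fold. Since 44.5% of the words of Slfn8 occur in other transcripts, its value is uncertain.

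**Figure D3:**
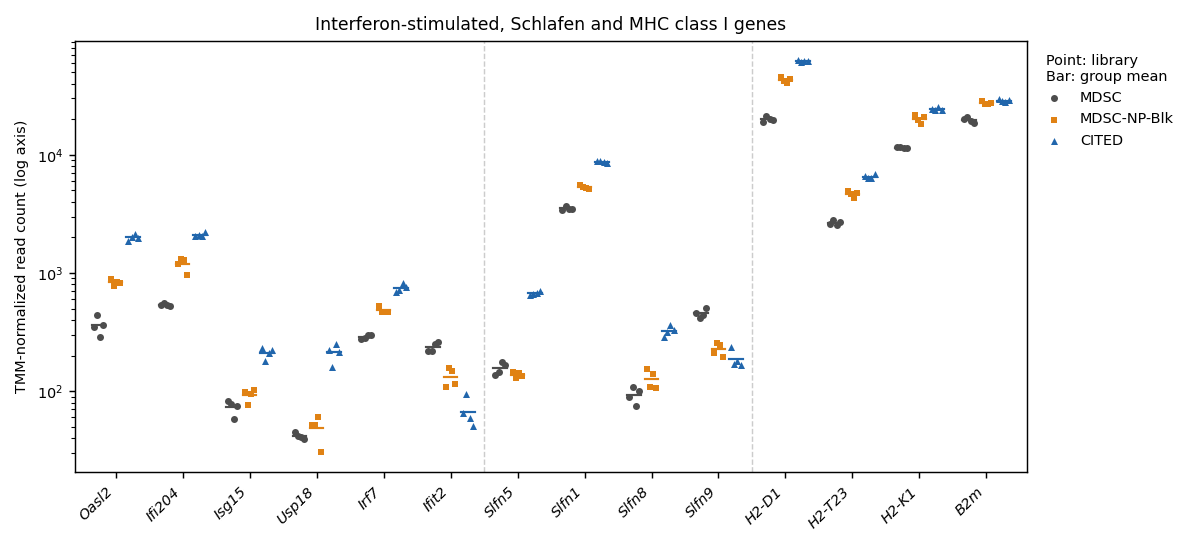
TMM-normalized read counts (log axis) of interferon-stimulated genes, Schlafen genes and MHC class I genes in each library. Points are libraries and bars are group means; grey circles are MDSC, orange squares MDSC-NP-Blk and blue triangles CITED. Usp18 and Slfn5 are high in CITED alone, at 159.8 to 251 and 654 to 698 counts, while the H2-D1 points of MDSC-NP-Blk lie between the other groups.

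Products of MHC class I genes display cytosolic peptides to CD8 T cells. Of 20 class I and immunoproteasome genes, 5 rose (Tapbp, H2-Q4, H2-K1, H2-T23 and H2-D1) and 0 fell, 15 passed the adjusted p alone, all upward, and the median was 0.67. Over all genes, 3.28% rose and 6.7% fell. H2-D1 had 18944, 21142, 19932 and 19559.7 normalized counts in MDSC and 62978, 61534, 61811 and 61672 in CITED. The groups were far apart, at 3.12-fold (log2 fold change 1.64 ± 0.044 SE, adjusted p = 3.16e-25, edgeR), with MDSC-NP-Blk between them at 40694 to 45309.8. H2-T23 and H2-K1 rose 2.46-fold and 2.11-fold, and the light chain gene B2m was at 1.46-fold. Class I heavy chains resemble each other, and 54%, 56.4% and 45.1% of the words of H2-D1, H2-T23 and H2-K1 were shared with other genes, so the split of reads among them is uncertain. The count of 5 became 2 with library size alone and 3 with a correction for transcript length.

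Class II genes, whose products present peptides to CD4 T cells, were mostly below the threshold. Of 12, H2-DMa, a peptide-exchange chaperone, rose 2.04-fold (a call lost without 1 library) and Ciita, the class II transactivator, fell 2.07-fold, while 9 were higher and 1 lower by adjusted p alone. The invariant chain gene Cd74 was at 0.22 ± 0.0469 on the log2 scale, which became -0.06 with library size alone and -0.005 with the length correction. Among 24 Toll-like receptor pathway genes, 2 rose and 2 fell, 16.7% in all against 9.99% of all genes. Unc93b1, which carries nucleic acid-sensing Toll-like receptors to endosomes, had 5240.4, 6031, 5564 and 5654 counts in MDSC and 13649.7, 13548, 13704 and 13675 in CITED, a 2.43-fold rise. Ly96, the MD-2 partner of Tlr4, rose 2.1-fold, and the flagellin receptor gene Tlr5 fell 2.6-fold. Cd180, a receptor that dampens Tlr4 signals, fell 2.76-fold against MDSC, but it was lowest with blank particles, at 60.7 to 70.7 counts against 98.8 to 140.1 in CITED (0.89 ± 0.149, adjusted p = 1.62e-05, edgeR). Tlr2 and Tlr4 were at 0.75 ± 0.0662 and 0.51 ± 0.0767 on the log2 scale.

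Among genes of lipid synthesis, 12 of 40 fell and 0 rose, where 6.7% of all genes fell and 3.28% rose. Of 15 fatty acid synthesis genes, 7 fell (Scd1, Acacb, Fads2, Elovl6, Fasn, Scd2 and Acaca) and 0 rose, 11 were lower and 2 higher by adjusted p alone, and the median was -0.75. Fasn, fatty acid synthase, had 5129, 4646, 5254 and 4938 normalized counts in MDSC and 1715, 1988, 1815 and 1814 in CITED. It fell 2.72-fold with no overlap (log2 fold change -1.45 ± 0.0763 SE, adjusted p = 1.71e-17, edgeR). Scd1, a stearoyl-CoA desaturase chosen after its values were seen, had 362, 269, 326 and 349 counts in MDSC and 53.8, 31.7, 26.6 and 51.1 in CITED, 7.97-fold lower in CITED. The more abundant desaturase gene Scd2 fell 2.68-fold, and Fads2, which desaturates polyunsaturated fatty acids, 3.23-fold.

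Fasn and Scd1 were also low in the cells with blank particles. Fasn had 1682 to 2366 counts in MDSC-NP-Blk and Scd1 49 to 56, and the differences of CITED from these libraries were -0.15 ± 0.0766 and -0.38 ± 0.205, with adjusted p of 0.165 and 0.206 (edgeR). Over the list, 6 genes were called lower in MDSC-NP-Blk against MDSC, with a median of -0.76. Scd2 and Fads2 were lower again in CITED than in MDSC-NP-Blk, both by 0.53 on the log2 scale.

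Of 25 sterol synthesis genes, 5 fell, among them Fdps, Dhcr7, Acat2 and Nsdhl, 0 rose, and 15 were lower and 4 higher by adjusted p alone, with a median of -0.30. That count of 5 was 3 without CITED replicate 1. Fdps, which makes farnesyl diphosphate, had 11686, 11035, 11631 and 11363 counts in MDSC and 5193, 5797, 5355 and 5403 in CITED, a 2.1-fold fall, and 72.3% of its words are shared with other genes. Dhcr7, the last enzyme of cholesterol synthesis, and Acat2, an acetyl-CoA acetyltransferase, fell 2.09-fold and 2.05-fold, the latter losing its call without 1 library. The SREBP target letters TCACCCCAC were found in 1 of the 25 promoters and in 0.533% of all.

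Of 16 cholesterol handling and efflux genes, 2 rose (Npc2 and Plin2) and 1 fell (Lpl), with a median of 0.17. The share called was 18.8%, against 9.99% of all genes. Npc2, which hands cholesterol out of lysosomes, had 8361, 8555, 8282 and 8166 counts in MDSC and 24857, 24885, 22118 and 22611 in CITED, a 2.83-fold rise (adjusted p = 1.73e-22, edgeR). Plin2, a coat protein of lipid droplets, rose 2.29-fold, and Lpl, lipoprotein lipase, fell 2.16-fold. The cholesterol exporter genes Abca1 and Abcg1 were at 0.36 ± 0.0917 and 0.38 ± 0.06.

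Several genes of amino acid synthesis fell. Of 24 targets of ATF4, the factor that mTORC1 and amino acid shortage both raise, 10 fell (Stc2, Vldlr, Phgdh, Aldh18a1, Pycr1, Shmt2, Psat1, Psph, Asns and Mthfd2) and 2 rose (Slc7a11 and Slc3a2), with a median of -0.88. Phgdh, Psat1 and Psph together make up the serine synthesis route, and Aldh18a1 and Pycr1 serve proline synthesis. Phgdh had 2480.2, 2543, 2433 and 2459 normalized counts in MDSC and 494, 613, 578 and 543 in CITED. It fell 4.45-fold with narrow spread in both groups (log2 fold change -2.15 ± 0.0759 SE, adjusted p = 4.87e-22, edgeR), with 74.7% of its words shared with other genes. Aldh18a1 fell 3.68-fold, Shmt2, a mitochondrial serine-to-glycine enzyme, 3.23-fold, and Asns, asparagine synthetase, 2.28-fold. Psat1, chosen after its values were seen, fell 3.03-fold, from 1613 to 1853 counts to 551 to 628.

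Atf4 itself was close between the groups, with 3509 to 3615 counts in MDSC and 3048 to 3294 in CITED (log2 value -0.15 ± 0.0533). Phgdh was lower in CITED than with blank particles by 1.28 ± 0.076 on the log2 scale (adjusted p = 4.15e-15), while Psat1 and Asns had differences of -0.14 ± 0.0837 and -0.15 ± 0.0919 (adjusted p of 0.249 and 0.27, edgeR). The AARE letters TGATGNAAT were in 2 of the 24 promoters and in 0.629% of all. Against the list, the genes of the cystine and large neutral amino acid transporters rose. Slc3a2, their shared heavy chain, had 4228, 4366, 4282 and 4345 counts in MDSC and 9991, 10145, 9880.0 and 9526 in CITED, a 2.3-fold rise, and Slc7a11, the cystine light chain, rose 2.21-fold. Both lost the call with library size alone. The 20 cytosolic tRNA synthetase genes had a median of -0.44, with 2 that fell (Iars1 at 2.64-fold and Tars1 at 2.01-fold, the latter losing its call without 1 library), 16 lower and 2 higher by adjusted p alone.

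**Figure D4:**
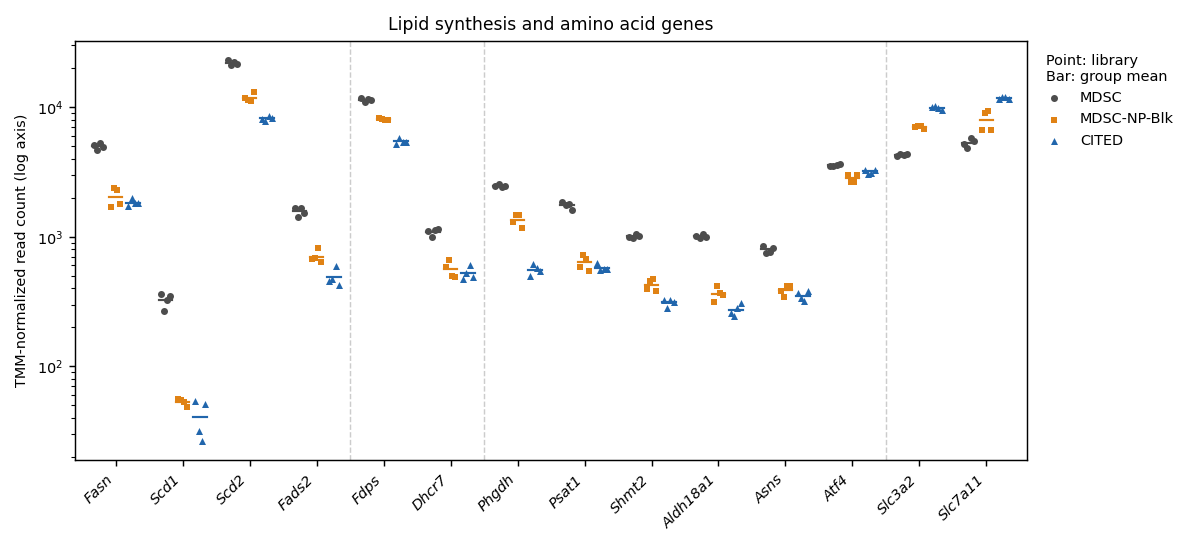
TMM-normalized read counts (log axis) of genes of fatty acid synthesis, sterol synthesis, amino acid synthesis with Atf4, and amino acid transport in each library. Points are libraries and bars are group means; grey circles are MDSC, orange squares MDSC-NP-Blk and blue triangles CITED. Fasn and Psat1 are as low in MDSC-NP-Blk (1682 to 2366 and 547 to 729 counts) as in CITED, whereas Phgdh is lowest in CITED at 494 to 613.

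Few of the mTOR pathway's own components passed the fold threshold. Of 48 genes, 21 were higher and 14 lower by adjusted p alone, with a median of 0.07. A mean normalized count above 50 was reached by 45 of them, and of the 10555 such genes 3761 were higher and 3409 lower. Past the fold threshold, 1 rose (Castor1, an arginine sensor) and 2 fell (Sesn3, a sestrin, and Grb10, an adaptor that mTORC1 stabilizes). The share called was 6.25%, against 9.99% of all genes. Mtor was at -0.52 ± 0.0798 on the log2 scale and Eif4ebp1, a translation repressor that mTORC1 phosphorylates, at 0.92 ± 0.0788. Castor1 rose 2.32-fold against MDSC and differed by -0.02 ± 0.118 from MDSC-NP-Blk. Sesn3 fell 3.33-fold, from 134 to 210.4 counts to 33.8 to 79.7.

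Autophagy genes had 6 that rose (Calcoco1, Map1lc3b, Gabarap, Gabarapl1, Map1lc3a and Sqstm1) and 1 that fell (Atg9b) among 37, with a median of 0.28. These 6 include the ubiquitin-like proteins of the autophagosome membrane and a pair of cargo receptors. The share of the list called was 18.9%, against 9.99% of all genes. Sqstm1, the receptor p62, had 5838, 6336, 6123 and 6136 normalized counts in MDSC and 16824, 16567, 16784 and 16631 in CITED. The CITED libraries were 2.73-fold higher and tightly grouped (log2 fold change 1.45 ± 0.044 SE, adjusted p = 7.64e-24, edgeR), with MDSC-NP-Blk between at 11958 to 12343. Gabarapl1 and Gabarap rose 2.36-fold and 2.19-fold. Atg9b fell 5.32-fold from 71.3 to 87.9 counts. With library size alone, the count of 6 became 1.

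Lysosomal genes were mostly higher by less than 2-fold. Of 41, 31 were higher and 5 lower by adjusted p alone, with a median of 0.54. All 41 had a mean normalized count above 50, and of the 10555 such genes 3761 were higher and 3409 lower. Past the fold threshold, 3 rose (Ctsd, Ctsl and Cd68) and 1 fell (Arsb), 9.76% in all against 9.99% of all genes. Of the 41, 28 were higher and 2 lower in CITED than in MDSC-NP-Blk by adjusted p alone, where 22% of all genes passed in either direction. Ctsd, the protease cathepsin D, had 54244, 56306, 53178 and 55167 counts in MDSC, 66949.6, 64751, 63519 and 65778 in MDSC-NP-Blk and 126136, 122957, 122609 and 117111 in CITED. The CITED libraries lay above both other groups, 2.23-fold over MDSC and by 0.91 ± 0.0385 over MDSC-NP-Blk on the log2 scale (adjusted p = 8.16e-19, edgeR). Ctsl, cathepsin L, rose 2.37-fold, and Arsb, arylsulfatase B, fell 3.5-fold. Of the 22 genes of the proton pump V-ATPase, which acidifies lysosomes, 15 were higher and 0 lower by adjusted p alone, and Atp6v0c rose 2.13-fold, with 44.2% of its words shared. With library size alone, the count of 3 lysosomal genes that rose became 0. Tfeb, the factor that drives many lysosomal genes, was at 0.58 ± 0.0761, and its CLEAR letters TCACGTGA were in 5 of the 41 promoters, none of a called gene, and in 1.26% of all.

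Iron storage and uptake changed in opposite directions. Fth1 (GRCm39 chromosome 19, 9957911 to 9962462), the ferritin heavy chain that stores iron, had 143800.5, 150249, 137617 and 143516 normalized counts in MDSC and 556719.8, 545103, 527336 and 526443 in CITED. It rose 3.75-fold (log2 fold change 1.91 ± 0.0394 SE, adjusted p = 1.54e-28, edgeR), and its share of all counts went up from 0.642 to 0.683% in MDSC through 1.27 to 1.43% with blank particles to 2.01 to 2.09% in CITED. Tfrc (chromosome 16, 32427556 to 32451612), the transferrin receptor that takes up iron, had 6269, 5773, 5904 and 5878 counts in MDSC, 2315, 2513, 2528 and 2386 in MDSC-NP-Blk and 1007, 1089, 901 and 1044 in CITED. Tfrc fell 5.9-fold against MDSC (adjusted p = 6.24e-27) and was lower than in MDSC-NP-Blk by 1.27 ± 0.0588 on the log2 scale (adjusted p = 7.14e-18, edgeR), the 3 groups forming 3 steps without overlap. Ftl1, the ferritin light chain, rose 2.06-fold and Blvrb, a heme-pathway biliverdin reductase, 2.69-fold. The words of Fth1 and Ftl1 were shared with other genes, mainly pseudogenes, to 47.2% and 94.8%, so the counts of Ftl1 in particular are uncertain.

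Over the list of 26 Nrf2 antioxidant and iron genes, 5 rose (Ftl1, Cbr3, Nqo1, Blvrb and Fth1) and 1 fell (Tfrc), with a median of 0.53, and 15 were higher in CITED than in MDSC-NP-Blk by adjusted p alone and 3 lower. In CITED against MDSC, 23.1% of the list was called, and 9.99% of all genes. Hmox1, heme oxygenase, was at 0.33 ± 0.0532. The ARE letters TGACNNNGC were in 6 of the 26 promoters, none of a called gene, and in 13.3% of all.

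Most ribosomal protein genes were higher by adjusted p alone, and few passed the fold threshold. Of 79 cytosolic ribosomal protein genes, 77 were higher and 2 (Rpl3 and Rpl5) lower by adjusted p alone, 5 rose past the threshold (Rpl37a, Rpl37, Rps9, Rplp2 and Fau), and the median was 0.66. The count of 5 became 2 with a correction for transcript length, 0 with library size alone, and 3 without CITED replicate 1. The part of the length trend given above in these values was not tested. Rps9 had 18394, 20050.2, 17851 and 16860.4 counts in MDSC and 42669, 41450.1, 37597 and 37413 in CITED, and the blank particle libraries held 36447 to 43146. The difference of Rps9 between CITED and MDSC-NP-Blk was -0.004 ± 0.0547, and over the list 29 genes were lower and 1 higher in CITED than in MDSC-NP-Blk by adjusted p alone. The initiation factor genes Eif1 and Eif3f rose 2.38-fold and 2.24-fold. Cox7a2l, an assembly factor of respiratory supercomplexes, rose 2.93-fold, with 77.2% of its words shared with other genes.

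Ribosome assembly genes were called lower no more often than genes at large, though many were lower by less than the fold threshold. Of 33 ribosome biogenesis genes, 0 rose and 2 fell (Dkc1 and Nop58, both parts of small nucleolar ribonucleoproteins), where 6.7% of all genes fell. Both calls were lost without 1 library and with the length correction. By adjusted p alone 18 were lower and 4 higher. All 33 had a mean normalized count above 50, and of the 10555 such genes 3409 were lower and 3761 higher. The list median was -0.33, against -0.05 for all genes and 0.02 for those 10555. Myc, the textbook activator of ribosome biogenesis genes, was at -0.35 ± 0.0716. The 13 mitochondrially encoded respiratory genes had a median of -0.35 with 0 calls, and the 78 mitochondrial ribosomal protein genes a median of 0.16 with 1 that rose, Mrpl52, at 2.36-fold.

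Several cytokine genes rose. Of 26 cytokine and antagonist genes, 10 rose (Osm, Il18bp, Lif, Il27, Tnfsf9, Il1rn, Il1a, Il12a, Il6 and Il1b) and 1 fell (Tnfsf13b, the B cell factor BAFF), with a median of 0.93. Called genes made up 42.3% of the list, against 9.99% of all genes. Il1b, interleukin-1β, had 1992, 2164, 2050.5 and 2299 normalized counts in MDSC and 9216, 8989.8, 8783 and 8286 in CITED. It rose 4.15-fold (log2 fold change 2.05 ± 0.0801 SE, adjusted p = 6.82e-21, edgeR), and MDSC-NP-Blk, at 6439.7 to 9536, overlapped CITED. Il1a and the receptor antagonist gene Il1rn rose 2.84-fold and 2.48-fold, Il1rn from 17018 to 18645 counts to 42389 to 47436. Il6, chosen after its values were seen, rose 4.08-fold from 37 to 74.4 counts, and Tnf was at 0.92 ± 0.087 on the log2 scale. Tnfsf13b fell 3.59-fold and was lower than in MDSC-NP-Blk by 1.07 ± 0.196.

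Of 22 NF-kB genes, 5 rose (Rela, Nfkb2, Nfkbib, Relb and Bcl3), 0 fell and the median was 0.68. Called genes made up 22.7% of the list, against 9.99% of all genes. With library size alone the count of 5 became 1. Bcl3, a nuclear IkB protein, had 802, 894, 720.2 and 685 counts in MDSC and 2025, 1857, 2258 and 2243 in CITED, a 2.7-fold rise. Nfkb2 and Rela, a precursor and a subunit of NF-kB, rose 2.17-fold and 2.14-fold, and the inhibitor gene Nfkbia was at 0.97 ± 0.0468.

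Immediate early genes, the first to respond to a stimulus, had 14 that rose and 0 that fell among 24, with a median of 1.11. That was 58.3% called, against 9.99% of all genes. The same number, 14, was called higher in MDSC-NP-Blk against MDSC, with a median of 1.17, and the 2 comparisons share the MDSC libraries. Junb, a subunit of the factor AP-1, had 3439.5, 3681, 3964 and 3393 counts in MDSC and 12523, 12502, 14002 and 13845 in CITED, a 3.65-fold rise (adjusted p = 1.74e-24, edgeR). Fos, its partner, rose 2.64-fold, Zfp36, which destabilizes cytokine mRNAs, 2.8-fold, and Ier3, a survival factor, 2.6-fold. Among 19 feedback genes of MAPK signaling, 5 rose and 0 fell, 26.3% in all against 9.99% of all genes. The count of 5 was 1 with library size alone. The phosphatase genes Dusp6 and Dusp5 rose 2.27-fold and 2.21-fold, and Phlda1 3-fold.

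**Figure D5:**
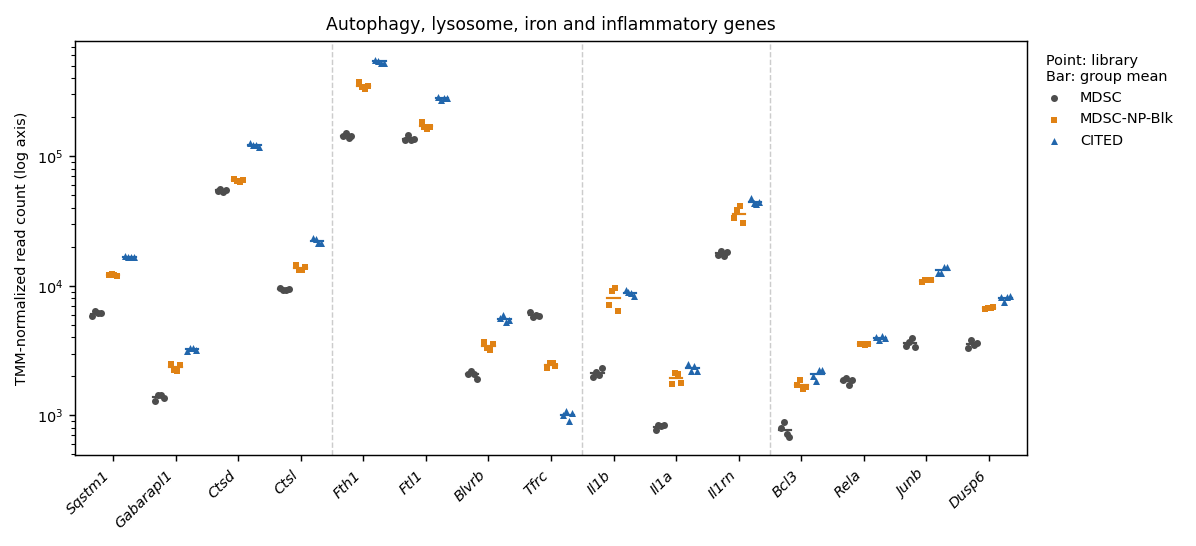
TMM-normalized read counts (log axis) of autophagy and lysosome genes, iron and heme genes, interleukin-1 genes, and NF-kB and immediate early genes in each library. Points are libraries and bars are group means; grey circles are MDSC, orange squares MDSC-NP-Blk and blue triangles CITED. Tfrc falls in 3 separate steps to 901 to 1089 counts in CITED, and Fth1 rises to 526443 to 556719.8, while for Il1b the MDSC-NP-Blk and CITED points overlap.

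Some genes of cell death, stress and the aryl hydrocarbon receptor were called, at shares that differed by list, against 9.99% of all genes. Of 17 BCL2 family genes, 4 rose (Bcl2a1a, Bcl2a1b, Bax and Bbc3) and 0 fell, 23.5% called. Bbc3, the death-promoting protein PUMA, had 196, 134, 236 and 214 counts in MDSC and 760.5, 812, 981 and 921 in CITED, a 4.46-fold rise without overlap (log2 fold change 2.16 ± 0.121 SE, adjusted p = 8.15e-17, edgeR). Bcl2a1a, a survival gene of neutrophils, rose 2.13-fold, with 79.6% of its words shared with its copies, and Mcl1 and Bcl2 were at 0.75 ± 0.043 and -0.48 ± 0.106. Of 15 inflammasome genes, 13.3% were called. The pore-former gene Gsdme rose 2.13-fold, and the sensor gene Nlrp1b fell, at -2.55 on the log2 scale. The inflammasome sensor gene Nlrp3 was at 0.89 ± 0.0581. Of 21 endoplasmic reticulum stress genes, 1 rose and 1 fell, 9.52% called and so no more than genes at large. By adjusted p alone 14 were lower and 3 higher. All 21 had a mean normalized count above 50, and of the 10555 such genes 3409 were lower and 3761 higher. Sdf2l1, an endoplasmic reticulum chaperone cofactor, fell 2.66-fold and Ppp1r15a, a phosphatase subunit that ends the stress response, rose 2.27-fold. The chaperone gene Hspa5 was at -0.78 ± 0.0519. Among 9 genes of the aryl hydrocarbon receptor, 4 rose and 0 fell, 44.4% called. Ahr, the receptor, rose 2.11-fold and Ahrr, its repressor and target, 2.54-fold, and the XRE letters TNGCGTG were in 2 of the 9 promoters, Ahrr among them, and in 6.77% of all.

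Genes of lipid mediators split along their branches. Of 23 eicosanoid genes, 5 rose (Alox5ap, Ltc4s, Pla2g7, Ptger2 and Ptafr) and 2 fell (Alox15 and Lta4h). The share called was 30.4%, against 9.99% of all genes. Lta4h, which makes the neutrophil attractant leukotriene B4, had 21172, 19639, 20684 and 20764 counts in MDSC, 16520.5, 16849.9, 16641 and 16681 in MDSC-NP-Blk and 9251, 9408, 9540.1 and 9123 in CITED. Lta4h fell 2.2-fold (adjusted p = 2.67e-21, edgeR), again with 3 groups that did not overlap. Ltc4s, which makes leukotriene C4 and was chosen after its values were seen, rose 3.16-fold from 58.2 to 83.5 counts. Alox5ap, the helper of 5-lipoxygenase, rose 2.26-fold, and both it and Ltc4s were as high with blank particles, with differences of -0.003 ± 0.0484 and -0.06 ± 0.142. Alox5 was at 0.28 ± 0.0476, Ptgs2 at 0.96 ± 0.122, and Pla2g7, which inactivates platelet-activating factor, rose 2.6-fold.

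In purine signaling, 5 of 19 genes rose (Adora2a, Adora2b, P2rx4, P2ry2 and Cd38) and 1 fell (Ada). The share called was 31.6%, against 9.99% of all genes. Ada, adenosine deaminase, had 422, 469, 422 and 484 counts in MDSC and 143, 132, 113 and 131 in CITED, a 3.46-fold fall (adjusted p = 3.32e-15, edgeR). Adora2b, an adenosine receptor, rose 2.44-fold, from 1354 to 1482 counts to 3348 to 3625. The ectoenzyme gene Cd38 rose 2.03-fold, a call lost without 1 library.

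Some members of surface protein families were called, and most members of each family were not. Among the families named below, the share called ran from 16% of the integrin genes to 33.3% of the Siglec genes, against 9.99% of all genes. Other surface families ranged more widely. The share was 0 of 12 for paired immunoglobulin-like receptors and 10.3% for the TNF superfamily. It was 12.9% for semaphorins and plexins and 41.7% for Ms4a genes. These shares rest on few genes per family, and whether a family changed as a whole was not tested. Of 25 integrin genes, 4 fell (Itga2, Itga4, Itga6 and Itgae) and 0 rose. Itga4, a chain of the adhesion receptor VLA-4, had 1555, 1369.6, 1709 and 1608 counts in MDSC and 398, 349, 354 and 330.0 in CITED, a 4.37-fold fall with MDSC-NP-Blk between at 625 to 838 (adjusted p = 7.94e-20, edgeR). Of 26 C-type lectin genes, 3 rose and 4 fell. Clec4d, an activating receptor for fungal and mycobacterial glycolipids, had 3739.9, 4133, 3527 and 3954 counts in MDSC and 15691, 15033, 14058 and 14565 in CITED, a 3.87-fold rise, and Clec7a, the β-glucan receptor dectin-1, rose 2.19-fold. Of 9 Siglec genes, 1 rose (Siglece, an inhibitory sialic acid receptor, at 2.36-fold) and 2 fell (Siglec1 and Siglech). Of 11 CD300 genes, 1 rose (Cd300c2, an activating receptor, at 2.84-fold) and 1 fell (Cd300lg). Of 25 tetraspanin genes, 3 rose (Cd37 at 2.31-fold, Cd9 at 2.04-fold, and Tspan8) and 2 fell (Tspan12 and Tspan2). Csf3r, the G-CSF receptor gene, rose 2.91-fold, and Socs3, the feedback inhibitor of IL-6 signaling, was at 0.81 ± 0.0507.

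Serpins and histones were called in both directions. Of 30 serpin genes, 4 rose and 3 fell, 23.3% in all. Serpinb2, a plasminogen activator inhibitor kept in macrophages, had 4249.8, 3918, 3671 and 3682 counts in MDSC and 17603, 15908, 16034 and 15509 in CITED, a 4.19-fold rise. This change passed the test (log2 fold change 2.07 ± 0.0525 SE, adjusted p = 6.59e-26, edgeR), and the libraries of MDSC-NP-Blk lay between, at 11573 to 12119. The linker histone gene H1f2 rose 4.67-fold, from 1145 to 1401 counts to 5772 to 6088. Of 63 histone genes, 7 rose and 4 fell, 17.5% in all against 9.99% of all genes. Only 7 of the 63 had a mean normalized count above 50. Some histone genes are near copies: 94.3% of the words of H2ac10 and 100% of those of H2ac19 were shared. The split of reads among such genes is uncertain. Histone mRNAs of this class normally lack a poly(A) tail, and the libraries were made from poly(A) RNA.

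Few hypoxia and glycolysis genes were called against MDSC, and most were lower than with blank particles. Of 16 hypoxia-inducible genes, 2 fell (P4ha2, whose call was lost without 1 library, and Ak4, whose call was lost with the length correction) and 0 rose against MDSC, with a median of -0.08, and 13 were lower and 1 higher in CITED than in MDSC-NP-Blk by adjusted p alone. Ak4, a mitochondrial adenylate kinase, had 2037, 1660.0, 1782 and 1837 counts in MDSC, 1893, 1621, 1354 and 1988 in MDSC-NP-Blk and 913, 848, 847 and 828 in CITED. The CITED libraries were the low ones, 2.13-fold below MDSC and by 1.00 ± 0.0857 below MDSC-NP-Blk on the log2 scale (adjusted p = 3.59e-11, edgeR). Vegfa was at 0.06 ± 0.0527 against MDSC, which became -0.22 with library size alone, and at -0.36 ± 0.0526 against MDSC-NP-Blk. Of 21 glycolysis genes, 1 fell against MDSC, and 17 were lower and 0 higher in CITED than in MDSC-NP-Blk by adjusted p alone, with Hk2, hexokinase 2, at -0.43 ± 0.0506.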

How the data were processed

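Poly(A) RNA of 12 libraries (3 groups of 4) was sequenced. The authors quantified reads with Salmon 1.4.0 on GENCODE transcripts of GRCm39 and summed them per gene symbol in R 4.3.2, and deposited whole-number counts without normalization; these were used as deposited. Salmon shares reads between similar transcripts by a model, so counts of near-identical genes are uncertain; the share of each named gene's 31-base words found in transcripts of other genes (GENCODE M39) was computed. The GENCODE release of the authors is not given in the sources used here. The 1 entry without a symbol held 0 counts and was left out.

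All 12 libraries were fitted together with edgeR 4.0.16 in R 4.3.3 (quasi-likelihood, TMM factors, group only, symbols whose counts summed to 2 or more), and calls took an adjusted p below 0.05 and a log2 fold change of at least 1, the thresholds of the study. The biological coefficient of variation was 9.03%. On simulated counts, 199 of 200 changed genes among 17003 were called, and 209 genes in all. The planted changes were all larger than the fold threshold and lay in genes with mean counts above 50. The simulated counts had no transcript length trend and no shift in composition beyond the planted genes. This check therefore does not show how many changed genes were found in the real libraries. Libraries of a group differed by more than sampling noise (chi-square per degree of freedom 4.72 to 9.6). The lists are described by counts and medians, with no set test. Genes were named by a rule: the called genes with the largest changes, the 3 called genes with the lowest p in each direction of each list, and anchor genes of each list; 7 others (Prtn3, Isg15, Usp18, Scd1, Psat1, Il6 and Ltc4s) were chosen after their values were seen. The comparison, its members and the lists were chosen with earlier results of these data known. Promoters were read from the GRCm39 genome, for 17648 of the 17676 tested symbols found in GENCODE M39. Alternatives were DESeq2 1.42.0, RLE factors, library size alone, other filters and thresholds, the 8 libraries only, a replicate block, a transcript length correction, and leaving out each library. Some genes are not reported here. Counting error limits a library's floor to 3 counts.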

Additional observations from a re-analysis of the deposited data

Results flagged for a closer look

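A single library stood apart from the other 3 of its group in 18 of 540 gene and group combinations (3.33%) by Dixon's test for 4 samples, where chance alone flags about 1 in 20. In MDSC, 1 library stood below the others for Abca1 (699 normalized counts against 1049 to 1112), Alox15 (66.1 against 81.3 to 83.9), C1qc (773 against 842 to 845) and Hmox1 (5032 against 5391 to 5455). In the same group, 1 library stood above the others for Cd9 (9989.5 against 9300.4 to 9332), H2-DMa (2408 against 2073 to 2106) and Ms4a2 (656 against 493 to 518).

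In CITED, 1 library stood below the others for Dusp6 (7539.7 against 8239 to 8378), H2ac19 (917 against 1123 to 1139) and Itga6 (622 against 727 to 736). It stood above them for Eif1 (18584 against 16048 to 16357), Mx1 (28.1 against 0 to 3.86), Prg2 (6175 against 5893 to 5900.1), Retnlg (17372 against 13654 to 14112) and S100a8 (296704 against 245166 to 253357). In MDSC-NP-Blk, Cd74 (21649.9 against 20058 to 20109) and Irf7 (529 against 467 to 471) had 1 high library, and Ltc4s (169 against 232 to 241) had 1 low library. The high CITED library was replicate 1 for Eif1, Prg2, Retnlg and S100a8.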

How the results depend on the processing

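The comparison called 1765 genes, 580 higher and 1185 lower. Library size alone gave 272 higher and 1891 lower, a mean normalized count above 50 gave 1122 in all and 726 lower, the adjusted p alone gave 7862 (3930 higher, 3932 lower), and glmTreat, which tests against the fold threshold itself, gave 722 (233 higher, 489 lower). DESeq2 gave 555 higher and 1166 lower, RLE factors 573 and 1195, no filter 588 and 1209, the 8 libraries alone 568 and 1229, and the length correction 513 and 1142. With a replicate block, 1621 genes were called (535 higher, 1086 lower); same-numbered libraries did not deviate together (correlations 0.0869, 0.0216, -0.0509 and -0.00724), so the numbers were not taken as pairs. Leaving out 1 library gave 1634 to 1746 calls, 544 to 587 higher and 1088 to 1159 lower.

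With library size alone the counts of genes that rose became 0 for the lysosomal list, 1 for autophagy, 0 for ribosomal proteins, 3 for Nrf2 and iron, 2 for MHC class I, 1 for NF-kB and 1 for MAPK feedback, and 8 sterol genes fell. The length correction gave 2 ribosomal protein and 3 MHC class I genes. Leaving out 1 library gave 3 to 5 sterol genes lower and 3 to 7 ribosomal protein genes higher, both lowest without CITED replicate 1. The log2 fold change turned in sign with library size alone for Cd74 (-0.06) and Vegfa (-0.22), and with the length correction for C3 (0.12) and Cd74 (-0.005), none of them called; the cause was not tested.

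Of 149 called genes among 180 examined by name, 8 lost the call without 1 library (Acat2, Cd38, Dkc1, H2-DMa, Mx1, Nop58, P4ha2 and Tars1), 41 with library size alone, 23 with the length correction and 1 (Mx1) with DESeq2, and 0 changed sign without 1 library. The 41 included Ctsd, Ctsl, Ftl1, Gabarap, Gabarapl1, H2-K1, Mmp9, Nfkb2, Plin2, Rela, Slc3a2, Slc7a11 and Srgn, and the 23 included Ak4, Cd68, Ciita, Ftl1, Gabarap, H2-K1, Rps9 and Srgn. At these depths a gene with fewer than 3 counts in a library was not distinguishable from 0.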
